A study of Mus musculus with 2040 samples.

Results

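The circadian clock genes Cry1, Cry2, Per1, Per2, Per3, Dbp, Arntl, Nr1d1, Nr1d2 and Ciart were examined in 2 classes of glia, astrocytes and oligodendrocytes, of the mouse brain. They form a set given by name and are 10 of the 32245 genes in the expression table. All 10 were above 0 in at least 1 cell. The table holds single cells from 47 C57Bl/6J mice, each of which carried 1 of 30 adeno-associated virus (AAV) vectors whose enhancer or promoter drives the yellow fluorescent protein SYFP2. Fluorescent cells were sorted singly and made into full-length cDNA with SMARTer v4. Clustering without the clock genes gave 10 clusters, of which 5 were astrocyte-like, 4 oligodendrocyte-like and 1 neuron-like by their markers.

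The mouse was the replicate, and each mouse entered with its larger glial class. Tissue labelled VISp gave 19 astrocyte-like mice (739 cells, 12 to 46 per mouse) and 22 oligodendrocyte-like mice (950 cells, 18 to 63 per mouse). CBX gave 2 astrocyte-like mice (81 cells, vector eHGT_375m) and MB/HB gave 4 (150 cells, vectors eHGT_381h and MGT_E160m). All mice shared the C57Bl/6J genotype and all carried a vector, so there was no uninjected group. The vector decides which cells fluoresce, and each vector was used in 1 tissue, so vector and tissue cannot be told apart. No vector gave VISp mice of both classes, so vector and class cannot be told apart either. The labels state no time of day, light schedule, age or sex. No cell identifier occurred more than once, and the prefix of the identifiers, such as AB-S40305, is not explained in the labels.

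The clock is a transcriptional feedback loop that runs in nearly every mammalian cell. Arntl (also called Bmal1), paired with Clock or Npas2, activates genes through E-boxes in their promoters, among them the Per and Cry genes, whose proteins then repress Arntl and its partner. Nr1d1 and Nr1d2 (REV-ERB alpha and beta) repress Arntl, and Dbp is an output factor that acts on D-boxes, so across the day Arntl peaks in opposite phase to Dbp, Nr1d1 and the Per genes. In the brain, astrocytes and oligodendrocytes carry this loop as neurons do.

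Promoter sequence was searched for the elements through which the loop closes. Of the 10 genes, 9 had a promoter in the RefSeq table of build GRCm38.p6, with 11 starts in all, and the 250 bases before each start were searched on both strands. A gene counts here if any of its starts has a match, while the shares over all genes are of single promoters. An E-box (CACGTG, a palindrome) was present in 3 of these 9 genes, against 6.02% of 32851 promoters of all genes. A D-box (TTATGTAA or TTACGTAA) was present in 1 gene, against 0.931% of all promoters. The core of the ROR element (TAGGTCA), the site that REV-ERB proteins share with ROR factors, was in none of them, against 2.23%. The 4 promoters with a match follow, 5′ to 3′ on the gene's strand and ending 1 base before the start, with the match in capitals. Ciart held 3 E-boxes, of which the nearest to the start begin 58 and 44 bases before it, Per1 held 1 in the distal part, Cry1 held 1 that begins 60 bases before the start, and Per3 held 2 D-boxes in the distal part.
Ciart (chr3:95882229-95882478, minus strand): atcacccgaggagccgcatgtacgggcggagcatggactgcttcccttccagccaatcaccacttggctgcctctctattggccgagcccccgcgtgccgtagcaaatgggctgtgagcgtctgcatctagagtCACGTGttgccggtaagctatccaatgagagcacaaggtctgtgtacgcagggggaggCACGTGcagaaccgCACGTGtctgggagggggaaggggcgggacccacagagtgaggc
Per1 (chr11:69098699-69098948, plus strand, first of 2 starts): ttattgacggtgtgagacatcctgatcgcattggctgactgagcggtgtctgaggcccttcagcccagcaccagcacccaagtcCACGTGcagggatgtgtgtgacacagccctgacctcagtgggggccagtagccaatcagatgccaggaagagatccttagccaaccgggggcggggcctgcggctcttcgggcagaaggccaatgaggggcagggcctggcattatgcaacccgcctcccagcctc
Cry1 (chr10:85185055-85185304, minus strand): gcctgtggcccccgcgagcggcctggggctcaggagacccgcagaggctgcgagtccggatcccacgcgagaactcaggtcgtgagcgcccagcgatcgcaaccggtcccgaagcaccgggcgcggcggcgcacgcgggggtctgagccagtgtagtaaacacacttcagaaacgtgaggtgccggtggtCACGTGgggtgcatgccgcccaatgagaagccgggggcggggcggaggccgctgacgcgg
Per3 (chr4:151044666-151044915, minus strand): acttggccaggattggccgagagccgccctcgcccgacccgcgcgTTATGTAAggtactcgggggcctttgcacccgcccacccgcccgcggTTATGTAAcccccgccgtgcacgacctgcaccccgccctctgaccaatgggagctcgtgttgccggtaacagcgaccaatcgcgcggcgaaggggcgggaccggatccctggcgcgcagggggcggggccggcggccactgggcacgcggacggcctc
A match describes the letters in this window and says nothing of binding in these cells.

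Reads per cell, recovered from the steps of the CPM values (counts per gene scaled to a common total per cell), had a median of 434101 (57873 to 1455022), and the VISp medians were 431572 for astrocyte-like and 442501 for oligodendrocyte-like cells. The 12 astrocyte markers summed to 26110 to 33680 CPM in VISp astrocyte-like mice and to 196.7 to 1160 CPM in oligodendrocyte-like mice. The 12 oligodendrocyte markers summed to 68590 to 92490 CPM in oligodendrocyte-like and to 171.1 to 1311 CPM in astrocyte-like mice. All 12 markers of a class were above 1 CPM in their own class, and neuron markers summed to at most 438.7 CPM in either class.

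Most of the clock genes were lower in VISp oligodendrocyte-like than in VISp astrocyte-like mice, with falls on the log2 scale from 0.95 for Per1 to 4.48 for Nr1d1, while Cry1 did not pass the test. In the limma fit of log2(mean CPM + 1) per mouse over 5155 genes, with Benjamini-Hochberg adjustment, 9 of the 10 genes fell and none rose. The background was high, since 39.5% of all genes fell, 27.8% rose and 67.2% changed in either direction, so the count itself says little. The median log2 change of the 10 genes was -2.44, against -0.16 over all genes tested. The log2 change is on the log2(mean CPM + 1) scale and understates the change of genes near 0. How far the mice of the 2 classes overlapped was counted for the 10 genes alone. The overlaps given below thus have no background over all genes.

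**Figure D1:**
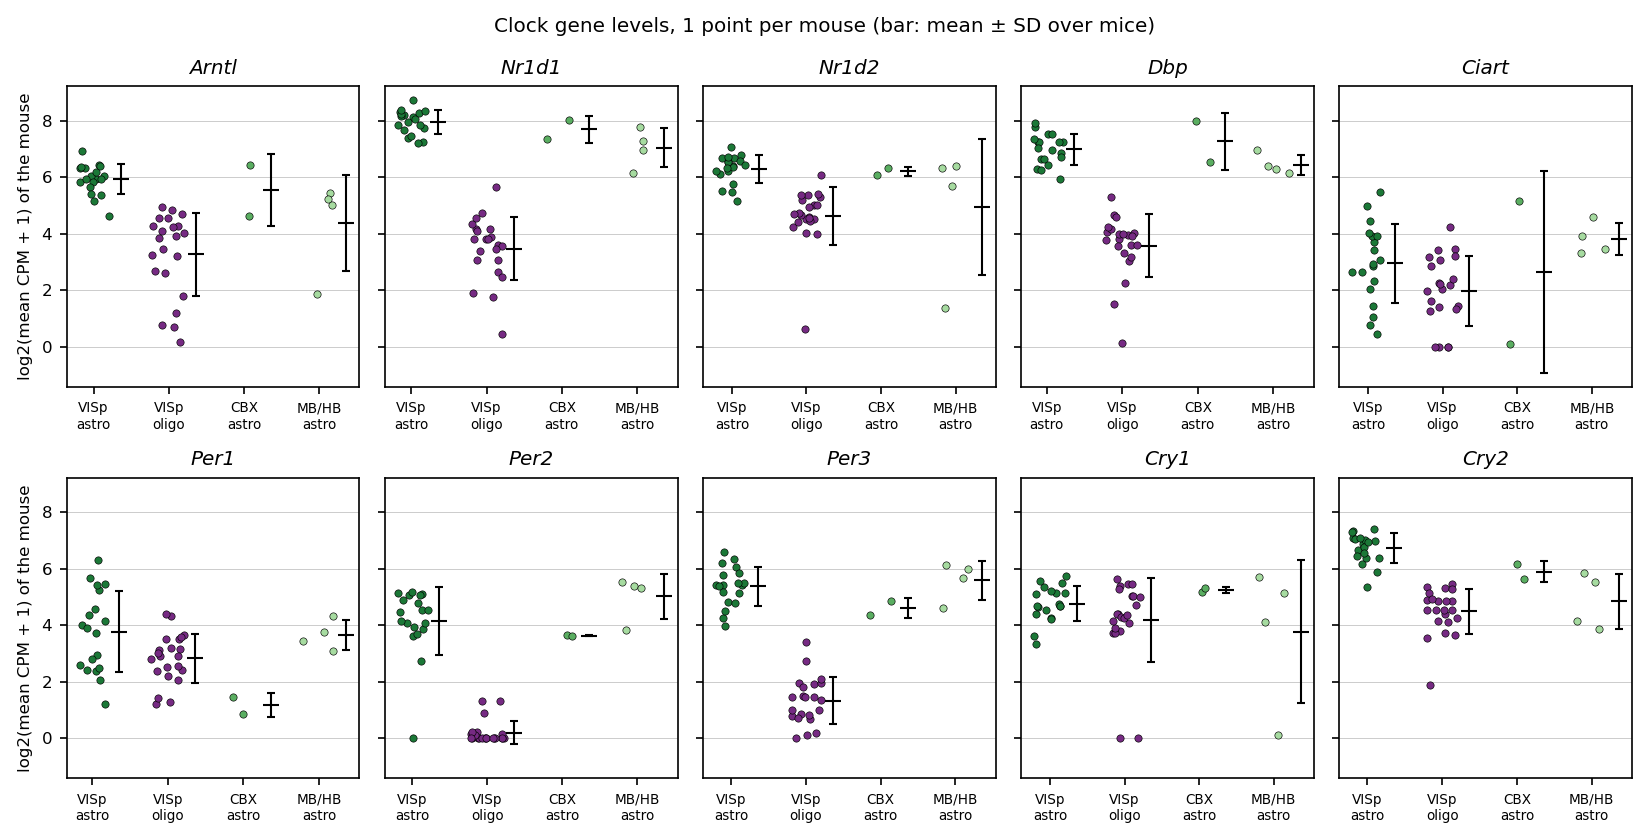
Level of each clock gene per mouse, as log2(mean CPM + 1) over the cells of the mouse's larger glial class, in 4 groups of mice; bars give the mean ± SD over mice. Nr1d1, Dbp and Per3 levels of the 22 VISp oligodendrocyte-like mice all lie below those of the 19 VISp astrocyte-like mice, while Cry1 levels overlap widely. The share of all genes set apart in this way was not counted.

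The activator Arntl stood at 23.95 CPM in the lowest VISp astrocyte-like mouse, 61.5 at the median and 121.2 in the highest, and at 0.127, 13.8 and 30.2 CPM in the oligodendrocyte-like mice. The groups overlapped little, with 3 oligodendrocyte-like mice above the lowest astrocyte-like mouse. Arntl fell by 2.66 on the log2 scale (SE 0.35, limma adjusted p = 2.79e-09). Its partners did not share a direction. Clock rose by 0.68 (SE 0.18, limma adjusted p = 0.000806), from a median of 34.3 to 54.5 CPM, and Npas2 fell by 4.32 (SE 0.26, limma adjusted p = 4.1e-21), from a median of 63.7 to 1.90 CPM. Arntl2, a paralogue of Arntl, fell by 1.56 (SE 0.35, limma adjusted p = 1e-04).

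The REV-ERB genes showed the largest and a middling fall of the 10. Nr1d1 ranged from 148.1 to 429.5 CPM with a median of 263.7 in astrocyte-like mice, and from 0.387 to 49.7 CPM with a median of 12.1 in oligodendrocyte-like mice. The lowest astrocyte-like mouse was thus above the highest oligodendrocyte-like mouse. Nr1d1 fell by 4.48 (SE 0.25, limma adjusted p = 2.41e-22). Nr1d2 ranged from 34.7 to 134.5 CPM (median 83.8) in astrocyte-like and from 0.556 to 67.4 CPM (median 24.7) in oligodendrocyte-like mice, with 6 oligodendrocyte-like mice above the lowest astrocyte-like mouse. It fell by 1.67 (SE 0.30, limma adjusted p = 2.51e-06).

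Among the repressors, Per2 and Per3 were close to absent from oligodendrocyte-like mice. Per2 had a median of 21.3 CPM in astrocyte-like mice, with 1 mouse of 12 cells at 0 and the highest at 35.5 CPM. Of the 22 oligodendrocyte-like mice, 14 had no Per2 read in any cell, and the highest stood at 1.53 CPM. Per2 fell by 3.96 (SE 0.28, limma adjusted p = 1.81e-18). Per3 ranged from 14.8 to 96.9 CPM (median 42.1) in astrocyte-like and from 0 to 9.63 CPM (median 1.66) in oligodendrocyte-like mice, with no overlap. It fell by 4.04 (SE 0.25, limma adjusted p = 1.09e-20). Per1, the member of the family that responds fastest to signals from outside the cell, behaved otherwise. It ranged from 1.34 to 79.1 CPM (median 14.2) in astrocyte-like and from 1.31 to 20.3 CPM (median 6.63) in oligodendrocyte-like mice, and 21 of the 22 oligodendrocyte-like mice were above the lowest astrocyte-like mouse. Per1 fell by 0.95 (SE 0.35, limma adjusted p = 0.0131), but its change was -0.76 with mice on AB prefixes alone (limma adjusted p = 0.102) and -0.44 within sets of mice joined by shared prefixes (limma adjusted p = 0.434), and did not pass in either.

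The cryptochromes differed from each other. Cry2 ranged from 40.3 to 169.3 CPM (median 117.8) in astrocyte-like and from 2.74 to 43.6 CPM (median 22.6) in oligodendrocyte-like mice, with 1 oligodendrocyte-like mouse above the lowest astrocyte-like mouse. It fell by 2.23 (SE 0.21, limma adjusted p = 1.7e-13). Cry1 ranged from 9.11 to 52.5 CPM (median 25.02) and from 0 to 48.4 CPM (median 19.8), with 2 oligodendrocyte-like mice at 0. Its log2 change was -0.58 (SE 0.39, limma adjusted p = 0.181), which did not pass the test. Ciart, which encodes a repressor of the Arntl-Clock pair, ranged from 0.382 to 43.8 CPM (median 6.63) and from 0 to 17.99 CPM (median 3.37). It fell by 0.97 (SE 0.41, limma adjusted p = 0.0343), but its change in summed reads was -0.86 (limma adjusted p = 0.0654).

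The output factor Dbp ranged from 60.02 to 239.8 CPM (median 131.8) in astrocyte-like and from 0.1002 to 38.9 CPM (median 13.7) in oligodendrocyte-like mice, with no overlap. Dbp fell by 3.41 (SE 0.26, limma adjusted p = 3.39e-17). Hlf, a factor of the same PAR bZIP family, fell by 4.72 (limma adjusted p = 1.48e-20), and Tef, the other member, by 0.88 (limma adjusted p = 1.5e-06). Nfil3, which represses at the D-boxes that this family activates, went the other way. It rose by 4.03 (SE 0.33, limma adjusted p = 3.77e-16), from a median of 0 CPM in astrocyte-like mice to 24.2 CPM in oligodendrocyte-like mice.

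Reads of overlapping genes cannot be told apart, since the kit does not mark strand. In the RefSeq annotation Nr1d1 overlaps Thra by 1075 bases, Dbp overlaps Sphk2 by 741, and Per3 shares 4714 with Uts2. Arntl, Cry2, Per2 and Ciart overlap lncRNA genes by 18143, 23417, 14768 and 3758 bases.

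**Figure D2:**
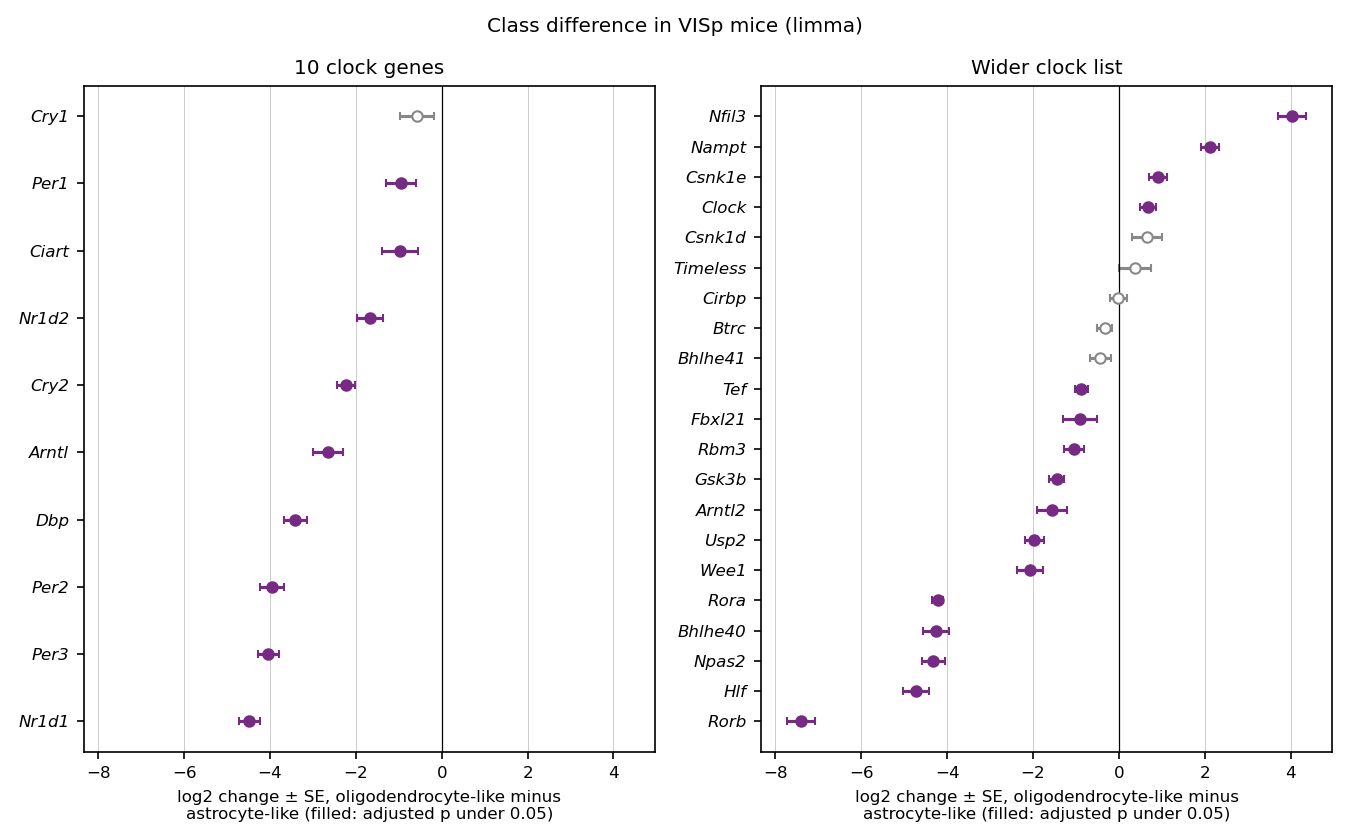
Difference in log2(mean CPM + 1) between the 22 oligodendrocyte-like and 19 astrocyte-like VISp mice, with its standard error, for the 10 clock genes and 21 further clock genes; filled points passed an adjusted p of 0.05. Changes run from -4.48 for Nr1d1 to -0.58 for Cry1 among the 10, and from -7.41 for Rorb to 4.03 for Nfil3 in the wider list.

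In a wider list of 21 clock genes, 12 fell and 4 rose between the classes, where 39.5% of all genes fell and 27.8% rose, so these counts do not set the list apart. The 4 that rose were Nfil3, Clock, Nampt, an enzyme of NAD synthesis (2.13, SE 0.21), and the kinase gene Csnk1e (0.91, SE 0.21). Rorb and Rora, whose proteins activate Arntl at the sites where REV-ERB represses, fell by 7.41 (SE 0.32) and 4.22 (SE 0.13). Bhlhe40, a repressor at E-boxes, fell by 4.26 (SE 0.30), the kinase gene Wee1 by 2.07 (SE 0.30) and the deubiquitinase gene Usp2 by 1.97 (SE 0.22). Gsk3b (-1.45), Rbm3 (-1.05) and Fbxl21 (-0.91) also fell, with Npas2, Arntl2, Hlf and Tef above. Csnk1d, Cirbp, Btrc, Bhlhe41 and Timeless did not pass the test. Against the same background, of 8 immediate-early genes 5 fell, led by Fos (-3.21, SE 0.60) and Btg2 (-2.82, SE 0.43). Of 4 glucocorticoid targets Sgk1 (7.01, SE 0.42) and Fkbp5 (1.41, SE 0.35) rose and Tsc22d3 (-2.28, SE 0.13) fell.

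No prefix was the main prefix of mice of both classes, but joining mice by any shared prefix gave 3 sets that held both, with 14 astrocyte-like and 10 oligodendrocyte-like mice. With the joined set as covariate over the 41 VISp mice, which was added after the data were seen, 8 of the 10 genes fell and none rose, where 33.1% of genes fell and 24.8% rose. Nr1d1 fell by 4.17 (SE 0.36, limma adjusted p = 7.43e-13), Dbp by 3.06 (SE 0.37, limma adjusted p = 4.73e-09) and Arntl by 2.95 (SE 0.49, limma adjusted p = 2.14e-06). Per1 (-0.44, SE 0.46) and Cry1 (-0.85, SE 0.48, limma adjusted p = 0.13) did not pass. Where 1 prefix held cells of both classes, values could also be set side by side, without a test. On AB-S40305, Nr1d1 averaged 277.6 CPM over the astrocyte-like cells of 4 mice and 18.4 CPM over the oligodendrocyte-like cells of 5. On AB-S40306 it averaged 223.9 and 17.6 CPM, and on SM-IYWLH 290 and 11.8 CPM, with 16 astrocyte-like cells on each. Dbp averaged 135.5 and 7.83, 134.1 and 15.8, and 139.9 and 21.9 CPM on the same prefixes. Cry1 had no single direction, at 34.7 and 9.18, 44.7 and 27.4, and 20.6 and 36.5 CPM.

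In 4 mice at least 10 neuron-like cells were sorted beside the glia. The number of the 10 genes that were higher in the glia than in the neuron-like cells was 7 in MouseID-614201 and 8 in MouseID-651222, both with astrocyte-like cells, and 1 in MouseID-638254 and 2 in MouseID-651227, both with oligodendrocyte-like cells. The share of all genes higher in the glia of these mice was not counted, so these counts have no background and say little. In the VISp mouse MouseID-614201, Dbp averaged 219.6 CPM over 26 astrocyte-like and 56.1 CPM over 13 neuron-like cells, and Nr1d1 148.1 and 71.4 CPM. The shares of cells with a read went the other way in that mouse, at 73.08% and 76.92% for Dbp and 65.38% and 100% for Nr1d1. Per1 stood at 1.34 CPM in the astrocyte-like and 14.3 CPM in the neuron-like cells. In the VISp mouse MouseID-638254, Arntl averaged 17.8 CPM over 30 oligodendrocyte-like and 44.7 CPM over 21 neuron-like cells, and Cry1 0 and 19.5 CPM. In the VISp mouse MouseID-651227, with 18 oligodendrocyte-like and 27 neuron-like cells, Nr1d2 averaged 0.556 and 47.3 CPM, and Cry2 2.74 and 55.2 CPM, while Dbp (38.94 and 19.2 CPM) and Per3 (9.63 and 1.32 CPM) were higher in the oligodendrocyte-like cells. In the MB/HB mouse MouseID-651222, Arntl averaged 2.65 CPM over 32 astrocyte-like and 86.9 CPM over 12 neuron-like cells, and Dbp 69.3 and 7.39 CPM. Cells of 1 mouse share its time of death, and each of these values rests on few cells and has no test.

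Between tissues, 1 of the 10 genes passed the test in each of the comparisons of astrocyte-like mice. In CBX against VISp, 1 of the 10 fell and none rose, where 16% of all genes changed, 8.19% falling and 7.86% rising. That gene was Per1, at 0.823 and 1.77 CPM in the 2 CBX mice, against 1.34 to 79.1 CPM in VISp. Per1 fell by 2.62 (SE 0.82, limma adjusted p = 0.0202). Per1 no longer passed when either CBX mouse was left out (limma adjusted p of 0.113 and 0.288) or with the main prefix as covariate (limma adjusted p = 0.159) or with the mean of log2 values over cells in place of the log2 of the mean (-1.29, limma adjusted p = 0.0733). Per2 had a change of -0.52 (SE 0.66, limma adjusted p = 0.688), but passed without cells with markers of other types (-1.89, limma adjusted p = 0.00805). In the wider list, Npas2 fell by 2.85 (SE 0.62, limma adjusted p = 0.00055), Rorb by 2.68 (SE 0.77, limma adjusted p = 0.0108) and Usp2 by 1.97 (SE 0.53, limma adjusted p = 0.00565). Wee1 rose by 2.19 (SE 0.71, limma adjusted p = 0.0257), from a median of 3.65 CPM in VISp to 16.3 and 20.4 CPM in CBX, the range of VISp being 0 to 19.8 CPM.

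In MB/HB against VISp, 1 of the 10 fell and none rose, where 17% of all genes changed, 10.3% falling and 6.65% rising. Cry2 stood at 45.2, 16.8, 56.2 and 13.7 CPM in the 4 mice, all but the 2 highest below the VISp minimum of 40.3 CPM. It fell by 1.88 (SE 0.38, limma adjusted p = 0.000177). Arntl and Nr1d2 had changes of -1.55 (SE 0.62, limma adjusted p = 0.079) and -1.34 (SE 0.53, limma adjusted p = 0.0696). Nr1d2 passed the test in 5 of the alternatives, among them the main prefix as covariate (-2.58, limma adjusted p = 0.00273). In that fit MouseID-651228 and MouseID-651229 added nothing to the change, since their main prefix, AB-S40321, held no VISp mouse. The value of -2.58 thus rests on MouseID-615516 and MouseID-651222, both with the vector eHGT_381h. Nr1d1 and Dbp had changes of -0.91 (SE 0.45, limma adjusted p = 0.167) and -0.54 (SE 0.45, limma adjusted p = 0.472), and passed with the mean of log2 values over cells (-2.25, limma adjusted p = 3.07e-05, and -1.48, limma adjusted p = 0.0192). The changes of Arntl and Nr1d2 rest largely on MouseID-651222, with 2.65 CPM of Arntl and 1.58 CPM of Nr1d2, where the other MB/HB mice had 31.4 to 42.9 and 51.4 to 83.2 CPM. In the wider list 3 genes fell: Rbm3 and Cirbp, both cold-inducible RNA-binding protein genes, by 1.19 (SE 0.42) and 1.12 (SE 0.36), and Csnk1e by 1.11 (SE 0.37). Oligodendrocyte markers summed to 838.6 to 6262 CPM, endothelial markers to 7.67 to 957 CPM and mural markers to 34.5 to 1286 CPM in MB/HB astrocyte-like mice, against at most 1311, 26.6 and 98.2 CPM in VISp; their part in these changes was not tested.

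For some of the clock genes, though not for most, the spread between mice was no larger than the sampling of cells gives. From the variance between cells within each mouse, the expected variance of the mouse mean was set against the variance observed between mice, both in CPM. In VISp astrocyte-like mice the expected share was 154.7% for Cry1, 110.2% for Per2 and 108.2% for Nr1d2, and for Arntl the observed SD was 22.24 CPM and the expected 22.36 CPM, so that the observed spread of these genes was at or under that from the cells alone. It was 65.5% for Cry2, 46.4% for Per3, 45.1% for Ciart, 37.5% for Nr1d1 and 31.1% for Dbp. Per1 stood apart with 13.8%, an SD of 20.9 CPM between mice against 7.77 CPM expected. In VISp oligodendrocyte-like mice the shares ran from 42.7% for Cry1 to 115.3% for Cry2.

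**Figure D3:**
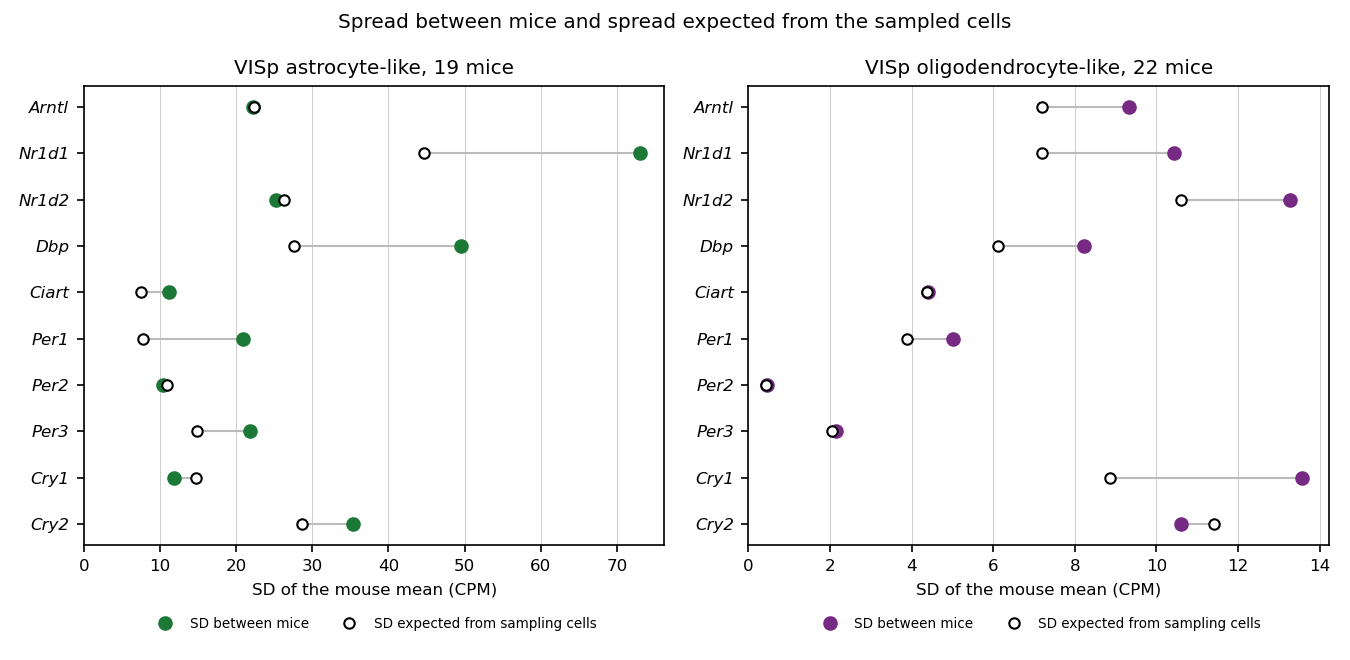
Standard deviation of the mouse mean between VISp mice (filled points) and that expected from the spread between cells of 1 mouse (open points), in CPM, for each clock gene and class. In astrocyte-like mice Per1 has 20.9 CPM observed against 7.77 CPM expected, while for Arntl both are close to 22 CPM.

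A test over main prefixes detected no clock level shared by the mice of a prefix. Each mouse entered with all its cells under its main prefix, so differences between the prefixes of 1 mouse were outside this test. In the limma F-test over 10 prefixes in 33 VISp mice, with class as covariate, none of the 10 genes passed the adjusted threshold, where 0.855% of 5145 genes did. At an unadjusted p under 0.05, 2 of the 10 passed, Ciart (p = 0.00836, limma adjusted p = 0.205) and Per1 (p = 0.0486, limma adjusted p = 0.39), where 12.7% of all genes did. No gene of the wider list passed the adjusted threshold, and the smallest p-values belonged to Usp2 (p = 0.0125), Rora (p = 0.0166) and Wee1 (p = 0.0487), with limma adjusted p of 0.244, 0.277 and 0.39. Cells of 1 mouse that lay on 2 prefixes could also differ. Among 10 VISp mice with at least 10 cells on each of 2 prefixes, the median absolute difference in log2(mean CPM + 1) ran from 0.35 for Dbp to 2.27 for Ciart, and was 0.52 for Nr1d1, whose highest was 4.22. In mice MouseID-638254, MouseID-641432 and MouseID-641433 the oligodendrocyte-like Nr1d1 level was 0.45, 0.17 and 0.00 on AB-S40314 and 4.67, 3.81 and 3.42 on AB-S40315, as log2(mean CPM + 1) over 14 to 24 cells. The 3 VISp mice split over AB-S40318 and AB-S40319 were astrocyte-like and differed by 0.14, 0.00 and 0.48 in that gene. Nr1d1 was detected in 14.2% of VISp oligodendrocyte-like and 77.8% of VISp astrocyte-like cells. An oligodendrocyte-like level over so few cells thus rests on a small number of cells with a read, and the 2 pairs of prefixes cannot be compared.

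Whether genes of opposite phase moved against each other was tested by the slope of every gene on the Arntl level of the mouse. No gene passed the adjusted threshold in either class (0% of 5093 genes in 19 astrocyte-like mice and 0% of 5087 in 22 oligodendrocyte-like mice), and at an unadjusted p under 0.05 in limma 5.52% and 10.1% of genes did. In astrocyte-like mice all 9 other clock genes had a slope below 0, where the median slope of all genes tested was 0.00. Among them Nr1d1, Cry2, Nr1d2 and Per3 turned above 0 in some of the alternatives given below. The share of all genes with a slope below 0 was not counted, and the 9 slopes share the same mice, so this count says little. The steepest of the 9 were Per1 at -1.27 (SE 0.54, p = 0.0263, limma adjusted p = 0.882) and Per2 at -1.17 (SE 0.45, p = 0.0159, limma adjusted p = 0.882). The slopes of the genes for which the opposite phase is best known were shallow, -0.19 for Dbp (SE 0.22) and -0.01 for Nr1d1 (SE 0.18). In oligodendrocyte-like mice 8 of 9 slopes were above 0, where the median slope of all genes tested was 0.01. The share of all genes with a slope above 0 was not counted, and these slopes also share the same mice, so this count says little too. The largest slopes were those of Nr1d2 at 0.34 (SE 0.12, p = 0.011, limma adjusted p = 0.352) and Per1 at 0.28 (SE 0.13, p = 0.0338, limma adjusted p = 0.46). Cry1, Cry2 and Per3 changed sign in some of the alternatives. The spread of Arntl itself between astrocyte-like mice was no larger than cell sampling gives, as above. Of the wider list, the smallest p-values belonged to Wee1, Gsk3b and Usp2 in astrocyte-like and to Fbxl21, Hlf and Rorb in oligodendrocyte-like mice, with limma adjusted p from 0.935 to 0.958 and from 0.217 to 0.409.

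Correlations across mice showed the relation behind the slopes. They were computed for 22 pairs with 100000-resample permutation tests, two-sided, adjusted over the 22. Arntl and Per2 had r = -0.52 and rho = -0.34 in 19 astrocyte-like mice (permutation p = 0.0333 and 0.155, adjusted p = 0.183 and 0.38). Without the 2 mice farthest from the median Arntl level, r was -0.14, so the relation rests on those mice, among them MouseID-616737 with the highest Arntl level and no Per2 read. Arntl and Per1 had r = -0.47 and rho = -0.51 (permutation p = 0.0417 and 0.0284, adjusted p = 0.183 and 0.313), r = -0.64 without the farthest 2 mice and r = -0.65 in 15 mice after prefix means were subtracted, but r = -0.13 (permutation p = 0.592) with the mean of log2 values over cells. Arntl and Dbp had r = -0.19 and rho = -0.12 (permutation p = 0.446 and 0.617). In oligodendrocyte-like mice Arntl and Nr1d2 had r = 0.48 and rho = 0.36 (permutation p = 0.0191 and 0.0959, adjusted p = 0.181 and 0.38), with r = 0.12 without the farthest 2. That pair passed on AB prefixes alone (r = 0.62, adjusted p = 0.0449, 16 mice) and with the mean of log2 values over cells (r = 0.57, adjusted p = 0.0396), while over all mice as analysed first none of the 18 pairs with Arntl passed the adjusted threshold.

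**Figure D4:**
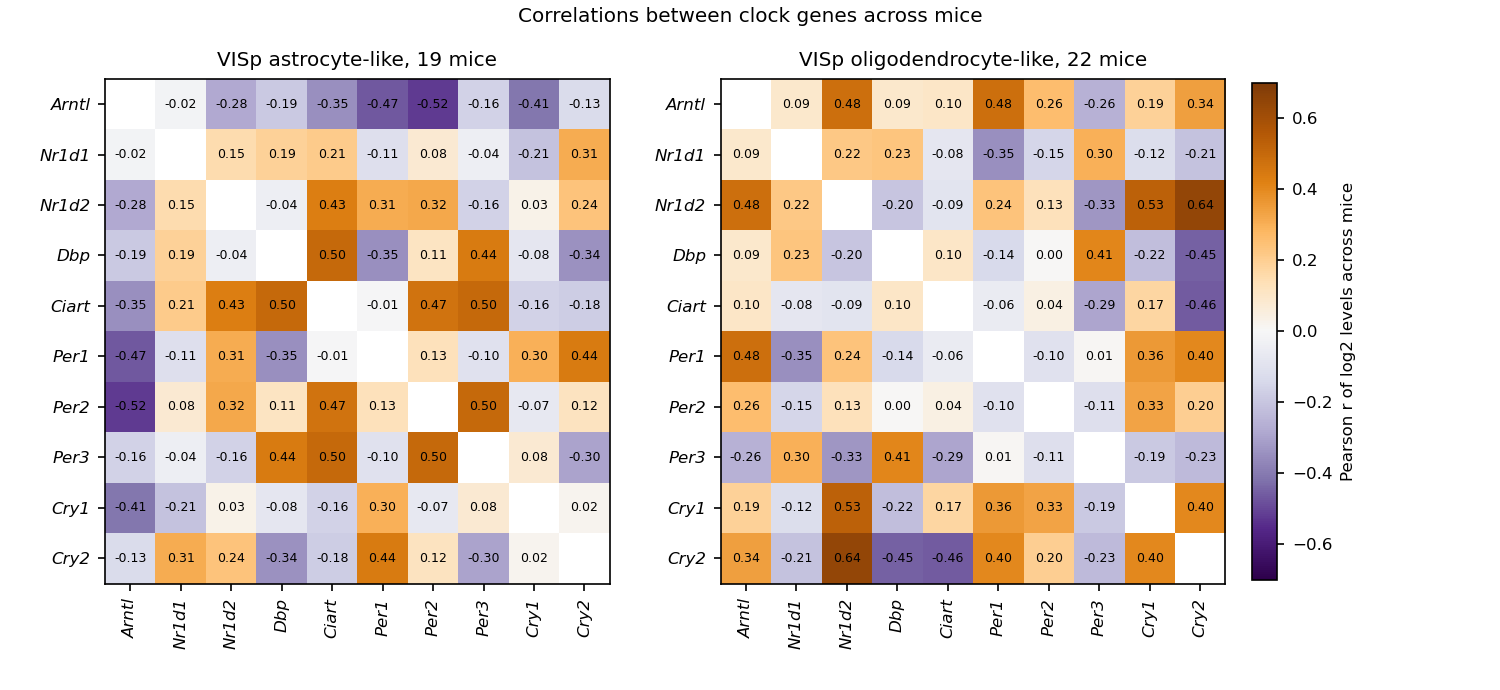
Pearson correlation of log2(mean CPM + 1) between each pair of clock genes across 19 astrocyte-like (left) and 22 oligodendrocyte-like (right) VISp mice, on a scale from purple (negative) to orange (positive). The Arntl row is below 0 throughout in astrocyte-like mice, though only at -0.02 for Nr1d1, and mostly above 0 in oligodendrocyte-like mice.

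The 45 pairs among the 10 genes had r from -0.52 to 0.50 in astrocyte-like mice, with 22 above and 23 below 0, and from -0.46 to 0.64 in oligodendrocyte-like mice, with 25 above and 19 below 0. All genes of a mouse share its cells and its depth, so these are given as a description. In astrocyte-like mice the highest were Ciart with Dbp (0.50) and with Per3 (0.50), and Per2 with Per3 (0.50). In oligodendrocyte-like mice Nr1d2 and Cry2 reached 0.64, to which MouseID-651227, with 18 oligodendrocyte-like cells, contributed the lowest level of both genes.

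The Per1 level in astrocyte-like mice went with that of Fos, an immediate-early gene that many stimuli induce. Fos ranged from 0 to 530.9 CPM (median 28.25), and the 4 mice with the most Fos, from 128.6 CPM up, had 37.7 to 79.1 CPM of Per1. Per1 and Fos had r = 0.68 and rho = 0.64 in 19 mice (permutation p = 0.0015 and 0.00386, adjusted p = 0.033 and 0.0849), the only pair of the 22 to pass, and by Pearson's r alone. It had r = 0.58 in 15 mice with prefix means subtracted (adjusted p = 0.17) and r = 0.50 without the farthest 2 mice (adjusted p = 0.452). Without cells with markers of other types r was 0.67 (adjusted p = 0.0519). The pair passed on AB prefixes alone (r = 0.68, adjusted p = 0.0449) and with the mean of log2 values over cells (r = 0.87, adjusted p = 0.00044). By rho it passed in none of the alternatives. In 22 oligodendrocyte-like mice r was 0.13 and rho 0.30 (permutation p = 0.551 and 0.177), with r = 0.37 and rho = 0.50 (permutation p = 0.0924 and 0.0191) without cells with markers of other types and r = 0.31 and rho = 0.48 (permutation p = 0.185 and 0.0342) without the farthest 2 mice, none of them past the adjusted threshold. The difference between the classes was not tested. Per1 and Fkbp5, a glucocorticoid target, had r = 0.36 in each class (permutation p = 0.133 and 0.0976), and the oligodendrocyte-like pair passed with the mean of log2 values over cells (r = 0.55, adjusted p = 0.0447).

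The slope of every gene on each of the 10 clock genes in turn was added after these values were seen. On Per1 in astrocyte-like mice 32 of 5093 genes (0.628%) passed the adjusted threshold, 31 with a slope above 0. Leaving out each of the 19 mice in turn gave 22 to 47 genes, and 23 of the 32 were called again without the farthest mouse, MouseID-614201. None of the other 9 clock genes was among them, a count that says little at that share, and of the wider list Usp2 was, with a slope of 0.60 (SE 0.09, limma adjusted p = 0.000509). Nr4a1 and Fos, immediate-early genes, had slopes of 1.67 (SE 0.34, limma adjusted p = 0.011) and 1.15 (SE 0.26, limma adjusted p = 0.024). Irs2, an adaptor of the insulin receptor, had 1.14 (SE 0.18, limma adjusted p = 0.000509), and the transcription factor genes Nr4a3 and Cebpb 1.23 (SE 0.22, limma adjusted p = 0.00394) and 1.16 (SE 0.21, limma adjusted p = 0.00307). Dio2, the deiodinase with which astrocytes activate thyroid hormone, had 0.40 (SE 0.06, limma adjusted p = 0.000509), and Clasp2, a microtubule-binding protein gene, had the smallest p of all at 0.41 (SE 0.06, limma adjusted p = 0.000185). Ldah was the only gene called with a slope below 0, at -0.23 (SE 0.05, limma adjusted p = 0.024). With the main prefix as covariate 4 genes passed, Usp2 among them (0.64, SE 0.10, limma adjusted p = 0.00709), while Clasp2, Nr4a1 and Fos had slopes of 0.37, 1.64 and 1.11 without passing (limma adjusted p of 0.0581, 0.389 and 0.482). Fos no longer passed when any single one was left out of the mice MouseID-614201, MouseID-616738, MouseID-616740, MouseID-630479 and MouseID-630480 (slopes of at most 1.12, limma adjusted p from 0.0544 to 0.186), nor did Nr4a1 without MouseID-630480 (1.61, limma adjusted p = 0.0661), nor Ldah without any single one of the mice MouseID-584420, MouseID-614201, MouseID-616740, MouseID-630479 and MouseID-630480 (limma adjusted p from 0.0518 to 0.197). With a pseudocount of 0.1 CPM, Fos (1.34, limma adjusted p = 0.0702) and Nr4a1 (1.59, limma adjusted p = 0.125) did not pass either. In oligodendrocyte-like mice 1 of 5087 genes (0.0197%) passed, Sgk1, a glucocorticoid-induced kinase gene (1.12, SE 0.19, limma adjusted p = 0.0105).

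**Figure D5:**
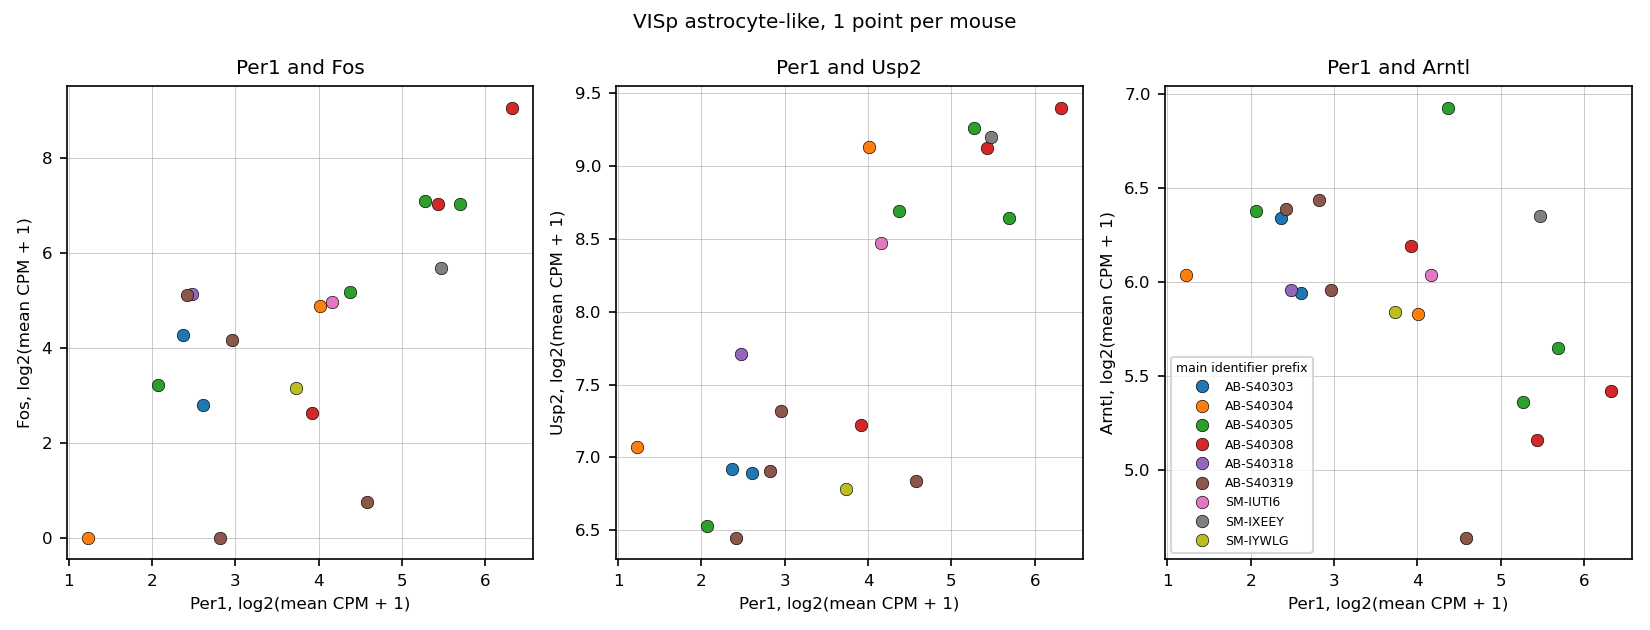
Levels of Fos, Usp2 and Arntl against Per1 in the 19 VISp astrocyte-like mice, each as log2(mean CPM + 1), coloured by the identifier prefix that holds most of the mouse's cells. Mice of AB-S40305 lie near both ends of the Per1 range. Usp2 falls into a lower set, from 86.29 CPM up, and an upper set of 352.7 to 676.8 CPM that are 0.75 apart on the log2 scale. All mice of AB-S40303, AB-S40318 and AB-S40319 lie in the lower Usp2 set.

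Several slopes on the other clock genes rested on single mice. Per2 in astrocyte-like mice had slopes past the threshold for 2.02% of genes, but for none without MouseID-616737, whose 12 cells held no Per2 read. Nr1d2 and Cry2 in oligodendrocyte-like mice had them for 4.54% and 0.904%, Nfil3 among both, and for none without MouseID-651227. Cry1 in oligodendrocyte-like mice had them for 2.08%, and for 4.31% without MouseID-638254, with 65 genes in both. MouseID-651227, like MouseID-638254 at 0 CPM of Cry1, stayed in that fit. Whether the Cry1 slopes rest on these mice was thus not tested. Dbp, Arntl, Nr1d1, Nr1d2, Cry1 and Ciart in astrocyte-like mice had none.

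The genes most like Arntl and Dbp across the 41 VISp mice, after class means were subtracted, were found among 4895 genes with a mean of at least 5 CPM. For Arntl they were Fam136a (r = 0.64), Inpp1 (0.60), Zfp719 (0.59), Stxbp5 (0.58) and Slc25a18 (0.57), and the least like were Rps6kl1 (-0.55), Cyb5a (-0.53), Agmo (-0.53), Higd2a (-0.50) and Pitrm1 (-0.49). For Dbp they were Mgat2 (0.64), Sord (0.61), Grn (0.60), Rcn2 (0.60) and Fech (0.60), and the least like were Igdcc4 (-0.57), Sec61g (-0.56), Fbxo30 (-0.56), Nkiras1 (-0.55) and Bloc1s2 (-0.53). None of these genes is on a clock list, and Cirbp of the wider list came next after the 5 highest for Dbp (0.60), which was seen after its value was known. For Fam136a with Arntl r was 0.08 across astrocyte-like and 0.75 across oligodendrocyte-like mice, and for Rcn2 with Dbp 0.17 and 0.79. For Pitrm1 with Arntl r was -0.55 and -0.58, and for Bloc1s2 with Dbp -0.58 and -0.57. Genes of a mouse share its cells and depth, and these values are a description.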

How the data were processed

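Single SYFP2+ cells were sequenced as separate libraries. The deposited table gives CPM, counts scaled to a common total, per gene and cell. STAR and the genome build mm10 are named in the submitters' processing notes, and the counting of strand is not given in the sources used here. All 9484843 positive CPM values were whole reads within 0.01 reads, which gave the depth per cell and 1 alternative. The fits used 5164 of 32245 genes, 116 on lists and 5048 drawn with a fixed seed among 11243 genes of mean CPM at least 5, and 27081 gene columns were not used. Cells were clustered without the clock genes (leidenalg 0.10.2) and named by markers. Each mouse with at least 10 cells of its larger glial class gave a profile, log2(mean CPM + 1). Genes of at least 1 CPM in 2 mice were fitted with limma 3.58.1 (R 4.3.3), with Benjamini-Hochberg adjustment at 0.05. These p-values measure the spread between mice. Correlations used scipy 1.17.1. The clock genes were named in every comparison, of the wider list those past the threshold or else the 3 of smallest p, and for Arntl and Dbp the 5 most and least alike genes. The members and lists were chosen with earlier results of these data known. Some genes of the wider list are not reported here. Scripts were tested on simulated data.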

Additional observations from a re-analysis of the deposited data

Results flagged for a closer look

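The 4 MB/HB astrocyte-like mice were the only group of a size suited to the test of single outlying mice. The 2 CBX mice were too few for it and the VISp groups too large. In MB/HB, 3 of the 10 clock genes had a mouse whose gap to the next exceeded 0.829 of the group's range. Chance flags about 1 in 20 groups. Arntl stood at 1.87 in MouseID-651222 (2.65 CPM, 32 cells), as log2(mean CPM + 1), where the other mice lay from 5.02 to 5.46, a gap of 0.877 of the range. Nr1d2 stood at 1.37 in the same mouse (1.58 CPM), where the others lay from 5.71 to 6.39, a gap of 0.864. Per2 stood at 3.83 in MouseID-615516 (13.2 CPM, 41 cells), where the others lay from 5.34 to 5.54, a gap of 0.883. Both mice carried the vector eHGT_381h.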

How the results depend on the processing

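The class difference was the firmest result: of 100 values of the 10 genes under the alternatives, 97 kept direction and call, 3 lost the call (Per1 in 2 and Ciart in 1) and none reversed. Over all fits of the 10 genes 7 values lost and 8 gained the call, 26 reversed and the others stayed, and of 110 correlations 88 stayed and 16 reversed. The cause was not tested. In CBX against VISp 16% of genes were called, and 36.5% with the mean of log2 values over cells, which moved the median of all genes from 0.02 to 0.32. Leaving out 1 CBX or MB/HB mouse at a time gave 6.48% to 16.8%, with 7.9% without MouseID-614198 and 6.48% without MouseID-651221, where the lone CBX mouse is assumed to vary like the other groups. In MB/HB against VISp 17% were called, and 10.6% to 17% without single mice, with 10.6% without MouseID-651222. The prefix test called 0.855%, and 0.0583% with mice joined by any shared prefix. Slopes on Arntl called 0% in astrocyte-like mice, 1.24% with mean log2 values, and 0.0197% both without cells with other markers and with at least 20 cells per mouse. In oligodendrocyte-like mice they called 0%, but 0.59% with a pseudocount of 0.1, 0.0194% without a filter, 0.275% with mean log2 values and 0.0198% without cells with other markers. Slopes on Per1, added after the data were seen, called 0.628%, 2.73% with mean log2 values, 0.0785% with prefix as covariate and 0.432% to 0.923% without single mice. Pairs of correlated genes past the threshold numbered 1, but 0 with prefix means subtracted, 2 on AB prefixes, 3 with mean log2 values, 0 without cells with other markers and 0 without the farthest 2 mice.

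These values reversed. In CBX with mean log2 values, Arntl was 0.03, Nr1d1 0.20, Nr1d2 0.66 and Ciart 0.48. Without MouseID-614198, Dbp was -0.43, Arntl 0.51 and Nr1d2 0.02, and without MouseID-651221 Nr1d1 was 0.07 and Ciart 2.21. In MB/HB, Per3 was -0.35 with mean log2 values, Per1 0.06 without MouseID-651222 and Cry1 0.22 without MouseID-651228. Of the slopes on Arntl in astrocyte-like mice, with mean log2 values Cry2 was 0.08, Nr1d1 0.16 and Nr1d2 0.03. Without cells with other markers Per3 was 0.18 and Nr1d1 0.02, with at least 20 cells 0.10 and 0.04, and Nr1d1 was 0.06 on AB prefixes and 0.12 with prefix as covariate. In oligodendrocyte-like mice, Per3 was 0.05 with mean log2 values and 0.00 with at least 20 cells, Cry1 -0.14 with at least 20 cells and -0.14 with prefix as covariate, and Cry2 -0.07 with that covariate. Of the correlations with Arntl in astrocyte-like mice, Nr1d1 was 0.29 with prefix means subtracted, 0.09 on AB prefixes, 0.15 with mean log2 values and 0.03 without cells with other markers. Cry2 was 0.09 and Nr1d2 0.03 with mean log2 values, Per3 0.14 without cells with other markers, and without the farthest 2 mice Cry2 was 0.09, Per3 0.08 and Dbp 0.02. In oligodendrocyte-like mice, Cry1 was -0.17 and Cry2 -0.21 with prefix means subtracted, Per3 0.13 with mean log2 values, and without the farthest 2 mice Cry1 was -0.19, Per3 0.16 and Ciart -0.04.

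The main prefix could not be fitted as covariate for the class difference, since no main prefix held mice of both classes. With sets of mice joined by any shared prefix as covariate, added after the data were seen, 57.9% of genes were called. No paired analysis was possible because the mice compared carry no shared replicate numbers. With 12 to 63 cells per mouse and genes often seen in few cells, small changes were not detectable, and 2 CBX and 4 MB/HB mice limit the tissue comparisons.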

Other observations

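Usp2, the deubiquitinase gene whose level had the closest relation to Per1 of the wider clock list, had a wide gap among the 19 VISp astrocyte-like mice. It stood at 352.7 to 676.8 CPM in 8 mice, and the other 11, from 86.29 CPM up, lay at least 0.75 lower on the log2 scale. Nr4a1 stood at 0 to 23.25 CPM in the same 11 mice and at 172.2 to 1105 CPM in the same 8. Irs2 was at 3.023 to 99.49 CPM in the 11 and at 147.7 to 710.2 CPM in the 8. For Cebpb the ranges were 0 to 12.25 CPM and 20.68 to 163.8 CPM. Fos overlapped, up to 34.36 CPM in the 11 and from 28.25 CPM up in the 8. The slopes of Usp2, Nr4a1, Irs2 and Cebpb on Per1 thus share the same division of mice. On AB-S40305, Usp2 was 91.71 CPM in MouseID-616739 with 3.21 CPM of Per1, 398.2 in MouseID-616740 with 50.55, 413.3 in MouseID-616737 with 19.7, and 611.9 in MouseID-616738 with 37.7. On AB-S40308, Usp2 was 148.2 CPM in MouseID-630481 with 14.2 CPM of Per1, 557.3 in MouseID-630479 with 42.2, and 676.8 in MouseID-630480 with 79.1. On AB-S40304, it was 133.3 CPM in MouseID-614201 with 1.34 CPM of Per1 and 558.2 in MouseID-615515 with 15.2. Mice of 1 vector fell on both sides for 5 vectors: 3xCore2(390m), GFAP_promoter, eHGT_385m, eHGT_390h and eHGT_390m. Of these vectors, all but eHGT_390m had their lower mouse on AB-S40318 or AB-S40319. The mice with AB-S40303, AB-S40318 or AB-S40319 as main prefix all stood in the lower set. The part of the prefix in the sets was not tested. Median reads per cell were 360029 to 557611 in the 8 mice and 313799 to 630526 in the 11. Nr1d1 ranged from 151.3 to 295.3 CPM in the 8 mice and from 148.1 to 429.5 CPM in the 11. The Per1 levels of the sets overlapped, from 15.15 CPM up in the 8 mice and up to 22.94 CPM in the 11, the latter in MouseID-651223 on AB-S40319 with 113.4 CPM of Usp2. The sets were seen in the data, have no label, and were not compared by a test.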
